A study of Mus musculus with 3 samples.

Results

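Granulocyte progenitors are bone marrow cells set on the path to neutrophils and other granulocytes. RNA was measured in these cells from non-tumor-bearing female mice (NTB), and the levels of all genes in this single library are described here on their own. Genes with at least 1 RPKM (RPKM is a read count scaled by gene length and by library size) were taken as members, which gave 10236 genes of the 24421 gene symbols in the table, or 41.9% of them. The labels call the mice F1 semi-syngeneic (H-2b/d), and these progenitors were purified from bone marrow by flow cytometry. The series holds 3 libraries, 1 per group, and the libraries from tumor-bearing and from IRF8-deficient mice were not compared with this one. The sources used here do not state the surface gate, the age of the mice or how many were pooled. With 1 library there is no replicate, so levels carry counting error only and no test was made.

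During granulocyte development, progenitors driven by transcription factors such as C/EBP alpha, PU.1 and GFI1 first make the proteins of the primary (azurophil) granules, among them myeloperoxidase and the neutrophil serine proteases. The proteins of the secondary (specific) granules follow at the myelocyte stage, and those of the tertiary (gelatinase) granules later still, as cells leave the cycle. Receptors for chemoattractants and the release from bone marrow belong to the last steps. These stages give the order in which the gene groups are described below.

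The deposited values correspond to 40530443 summed reads, recovered from the whole-number ratios of reads to gene length. For a gene of median length, 2833 bases, 1 read was worth 0.00788 RPKM, the 3 reads taken as the limit for a gene at 0 were worth 0.0236, and an RPKM of 1 rested on 127 reads. Members held a median of 1619 reads, and 248 of them rested on under 100 reads. The cell type label was compared with marker genes. Mpo, Elane and Prtn3 of the primary granules stood at ranks 2, 6 and 8. Kit and Cd34 of progenitors were at 57.2 and 36.9 RPKM, though the stem cell list that holds them had a median of 1.28. No T cell (0 of 19) or NK and innate lymphoid marker (0 of 14) reached 1 RPKM. In the monocyte list 18 of 21 genes did, and in the B cell list 2 of 23, with Cd79b at 16.4. Whether monocyte precursors were among the sorted cells was not tested. In a bulk library a low level can come from few cells with much of an RNA or from many cells with little, and these cannot be told apart.

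The transcriptome spanned from 1 to 10186 RPKM among members, with a median of 12.8 and quartiles of 5.67 and 27.2. There were 5989 genes at 10 RPKM or more (24.5% of symbols), 555 at 100 or more (2.27%) and 52 at 1000 or more. RNA was concentrated in few genes. The 20 highest genes held 16.7% of the summed RPKM, 306 genes held 50% of it and 4454 held 90%. At the other end 10142 symbols were listed at 0 (41.5%), and the 4043 genes above 0 but under 1 RPKM added 0.214% of the summed RPKM. Just inside the threshold lay Sytl4, Gm4532, Tnni3 and Bank1, each at 1.00 RPKM, and just outside it lay Pard3b (0.998), C030034L19Rik (0.997), Rab4a (0.996) and Tesc (0.995).

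**Figure D1:**
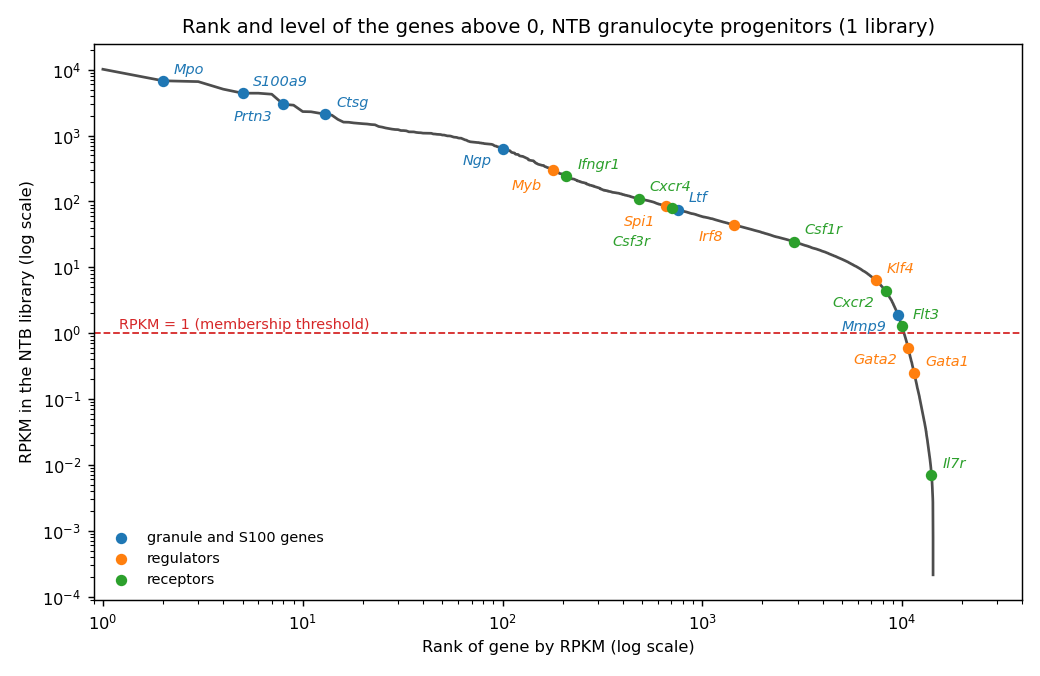
RPKM of every gene above 0 in the NTB library against its rank, both on log scales, with granule and S100 genes, regulators and receptors marked by color and the membership threshold as a dashed line. Primary granule genes such as Mpo at 6811 RPKM stand at the left. Myb, Spi1, Irf8, Ifngr1, Cxcr4, Csf3r and Csf1r lie in the middle between 24.6 and 300 RPKM. Klf4 (6.40), Cxcr2 (4.38) and Flt3 (1.28) lie lower but above the threshold, and Gata2 (0.592), Gata1 (0.247) and Il7r (0.00696) lie below it.

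The highest messenger RNA was Mpo, which encodes myeloperoxidase, the heme enzyme of primary granules, at 6811 RPKM (95% counting interval 6796 to 6826). By reads it was the first of all genes, with 776688 reads or 1.92% of the total. Above it in RPKM stood only Rpph1, the RNA of ribonuclease P, at 10186, and next to it Rmrp, the RNA of ribonuclease MRP, at 6613. Both are short noncoding RNAs, and the size selection of the library is not stated in the sources used here. Rn45s, the ribosomal RNA precursor, was at 2903 RPKM and took 1.87% of reads.

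After Mpo came a small group of myeloid effector genes and general growth genes. S100a9 and S100a8, the subunits of calprotectin, a calcium and zinc binding protein of neutrophils and monocytes, were at 4413 and 4255 RPKM. Their levels were within 1.04 times of each other. Elane (neutrophil elastase) was at 4411, Prtn3 (proteinase 3) at 2992 and Ctsg (cathepsin G) at 2112. Plac8, a small cysteine-rich protein of myeloid cells, was at 1596 and Srgn, the serglycin core protein that packs granule proteases, at 1560. Among housekeeping genes Eef1a1 (elongation factor 1 alpha) was at 5080, Ptma at 2304, Actb at 2199, Ppia at 1764 and Tmsb4x at 1605 RPKM. Myeloid effector genes therefore stood in the same range as the most abundant housekeeping genes.

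Among the 100 highest genes 56 encoded cytosolic ribosomal proteins, 11 encoded replication-dependent histones and 6 belonged to the primary granule list, while the secondary granule list had 1 (Ngp) and the ER folding list 1 (Calr). Ribosomal protein genes held 15.3% of the summed RPKM, with a median of 786 over 81 genes and Rps12 (2320) and Rps23 (1537) highest. Core members of this family at low levels were Rpl26 (1.52 RPKM), Rps27 (4.00), Rpl30 (7.60) and Rpl34 (10.3). Ribosomal protein genes have many near-identical copies, so these low values are uncertain. The cause was not tested. Histone genes held 5.18% of the summed RPKM, with 58 of 68 at 1 RPKM or more, led by Hist1h2bn (2043), Hist1h2bl (1518) and Hist1h4k (1377). Histone genes also share near-identical sequence.

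Of the genes at 1000 RPKM or more, 30 had a single promoter window in RefSeq (GRCm38.p6, the mm10 assembly), reaching from 250 bases before to 50 bases after the annotated start. Only 7 of these had an observed over expected CpG ratio under 0.6, a common mark of promoters without a CpG island: Mpo, S100a9, Elane, S100a8, Prtn3, Ctsg and Rps4x, the last at 0.598. The windows of the first 6 are shown with that of Eef1a1, a CpG-rich gene of like level, because they carry this difference. Capitals mark matches on either strand to 4 motifs. TATAAA is the core of the TATA box, and CCAAT is the box read by NF-Y. The motif TTGCNNAA is the outline of the C/EBP palindrome, and GAGGAA is a purine-rich core read by PU.1 and other ETS factors. Adjoining matches run together.
Mpo (chr11:87793534-87793833, plus strand): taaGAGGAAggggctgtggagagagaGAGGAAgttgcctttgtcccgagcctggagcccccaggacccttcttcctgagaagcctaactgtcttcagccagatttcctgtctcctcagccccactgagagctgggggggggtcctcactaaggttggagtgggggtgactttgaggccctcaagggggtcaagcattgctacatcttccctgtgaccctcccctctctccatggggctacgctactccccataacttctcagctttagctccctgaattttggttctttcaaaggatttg
Elane (chr10:79886062-79886361, plus strand): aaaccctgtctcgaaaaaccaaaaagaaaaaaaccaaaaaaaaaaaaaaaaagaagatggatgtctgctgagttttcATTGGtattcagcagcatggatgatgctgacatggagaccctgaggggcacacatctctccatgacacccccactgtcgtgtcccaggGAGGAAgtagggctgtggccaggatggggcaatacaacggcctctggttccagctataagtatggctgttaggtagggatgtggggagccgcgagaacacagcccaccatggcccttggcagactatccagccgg
Prtn3 (chr10:79879417-79879716, plus strand): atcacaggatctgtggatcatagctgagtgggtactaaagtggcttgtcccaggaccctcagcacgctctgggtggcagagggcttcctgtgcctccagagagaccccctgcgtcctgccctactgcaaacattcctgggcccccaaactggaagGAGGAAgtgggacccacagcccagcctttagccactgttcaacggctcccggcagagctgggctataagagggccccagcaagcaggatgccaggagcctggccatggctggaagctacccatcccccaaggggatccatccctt
Ctsg (chr14:56102525-56102824, minus strand): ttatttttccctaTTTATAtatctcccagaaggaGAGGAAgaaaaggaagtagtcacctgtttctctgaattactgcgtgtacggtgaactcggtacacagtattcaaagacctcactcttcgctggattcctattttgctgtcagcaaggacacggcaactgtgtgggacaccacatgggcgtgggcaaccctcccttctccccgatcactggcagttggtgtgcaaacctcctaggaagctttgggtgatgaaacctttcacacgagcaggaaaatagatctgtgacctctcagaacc
S100a8 (chr3:90668821-90669120, plus strand): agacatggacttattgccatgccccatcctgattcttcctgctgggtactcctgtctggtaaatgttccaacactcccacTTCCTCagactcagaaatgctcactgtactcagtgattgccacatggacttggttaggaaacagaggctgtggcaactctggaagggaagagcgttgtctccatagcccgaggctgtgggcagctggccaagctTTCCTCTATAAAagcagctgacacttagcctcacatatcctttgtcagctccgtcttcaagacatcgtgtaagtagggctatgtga
S100a9 (chr3:90695672-90695971, minus strand): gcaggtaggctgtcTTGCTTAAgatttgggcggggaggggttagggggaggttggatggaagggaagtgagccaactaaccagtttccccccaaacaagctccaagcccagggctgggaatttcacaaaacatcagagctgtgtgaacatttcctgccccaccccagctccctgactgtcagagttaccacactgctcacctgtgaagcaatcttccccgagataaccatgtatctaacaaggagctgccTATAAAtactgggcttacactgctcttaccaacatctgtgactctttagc
Eef1a1 (chr9:78481675-78481974, minus strand): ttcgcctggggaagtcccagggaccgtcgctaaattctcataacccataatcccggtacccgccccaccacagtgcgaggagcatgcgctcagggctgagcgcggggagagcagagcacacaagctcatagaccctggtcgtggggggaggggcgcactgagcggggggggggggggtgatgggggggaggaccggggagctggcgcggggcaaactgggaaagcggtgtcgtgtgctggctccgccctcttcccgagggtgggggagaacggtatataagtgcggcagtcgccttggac

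The Mpo window had a CpG ratio of 0.0871 with 2 CpG dinucleotides in 300 bases, S100a9 0.101, Prtn3 0.145, S100a8 0.214, Elane 0.314 and Ctsg 0.464, while Eef1a1 had 0.697 with 22 CpG. GAGGAA was found in 5 of the 6 myeloid windows shown, and neither in S100a9 nor in Eef1a1. On the coding strand it began 85 bases before the start in Elane and 95 before it in Prtn3. In Mpo it began 247 and 224 bases before, in Ctsg 216, and in S100a8 the 2 matches were on the other strand. S100a8 was the only one of these 7 with TATAAA in the usual place of a TATA box, 30 bases before the start on the coding strand. In S100a9 TATAAA began at the annotated start itself, and TTGCNNAA began 236 bases before it. The genes lie at chromosome 11 (Mpo, 87793581 to 87804413), chromosome 14 (Ctsg, 56099881 to 56102574) and, 3073 bases apart, chromosome 10 (Prtn3, 79874476 to 79883174, and Elane, 79886247 to 79888215), by GENCODE M21 on mm10. S100a8 and S100a9 are neighbours on chromosome 3 with a gap of 22597 bases. The starts of RefSeq and GENCODE differ for some of these genes, and positions here are counted from the RefSeq start. A match is a string of letters and does not show binding.

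Over the 14577 symbols with a single promoter window, CpG content was higher in the higher level classes up to 100 RPKM. A ratio of at least 0.6 was found in 16.1% of 5934 windows of genes at 0, 42.1% of 2357 above 0 and under 1, 71.6% of 2542 from 1 to 10 and 83.9% of 3409 from 10 to 100 RPKM. It was found in 81.3% of 305 windows from 100 to 1000 and in 76.7% of the 30 at 1000 or more. Genes of the granule lists lay apart from this pattern. None of 9 primary and none of 15 secondary granule windows reached 0.6, although their genes ran up to 6811 and 632 RPKM, while 8 of 9 windows of granulocyte regulators did. TATAAA anywhere in the window was in 22.8% of windows at 0, 6.36% of members' windows and 23.3% of the 30 at 1000 RPKM or more. TATAAA starting 40 to 20 bases before the start was in 5.46% at 0, 1.03% of members and 3.00% of all windows. GAGGAA was in 27.4% of all 14577 windows, 7 of 9 primary granule windows (77.8%) and 10 of 15 secondary granule windows (66.7%), and 2 of 9 regulator windows. TTGCNNAA was in 10.2% of all windows, 4 of 9 primary and 4 of 15 secondary. The primary windows with it were those of Ms4a3, Fcnb, Clec12a and Cst7. It was absent from those of Mpo, Elane, Prtn3, Ctsg and Ctsc. CCAAT was in 39.3% of all windows, 3 of 9 primary and 6 of 15 secondary. These are counts over small lists, and no test was made on them.

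**Figure D2:**
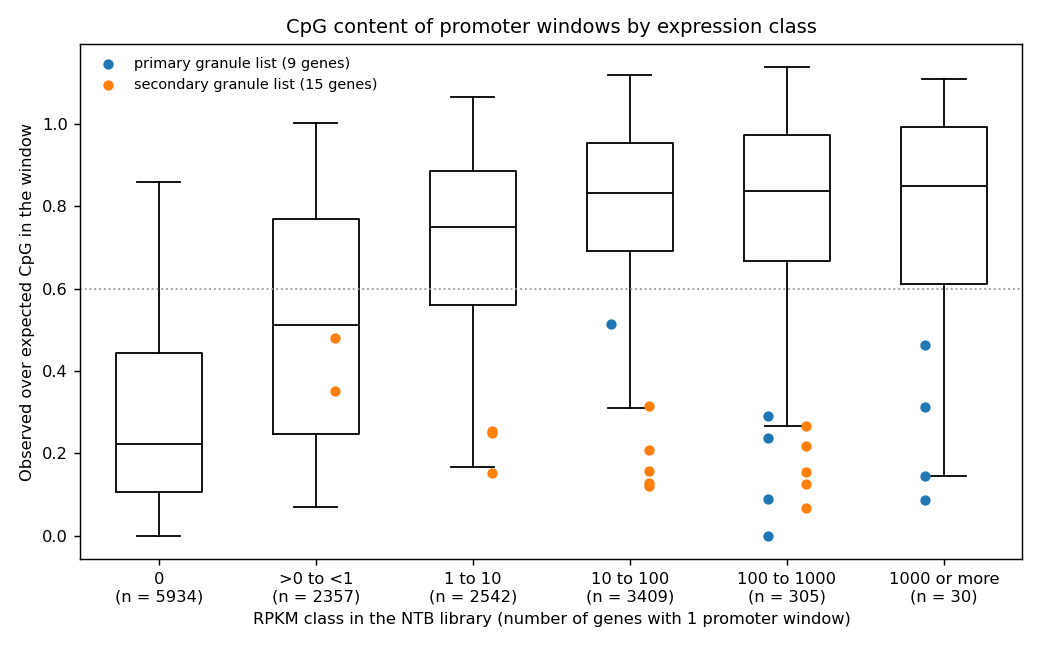
Observed over expected CpG in the 300-base promoter window by level class of the gene in the NTB library. Boxes give the median and quartiles, and whiskers the 5th and 95th percentiles. Dots give the genes of the primary (9) and secondary (15) granule lists. These dots all lie below the dotted line at 0.6 in every class where they occur.

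By list median, the granule lists were higher the earlier their granule forms. The primary list is not limited to granule proteins and holds, among others, the receptor gene Clec12a. The lists were chosen with earlier results of these data known. All 13 genes of the primary granule list were members (41.9% of all symbols were), with a median of 421 RPKM, and together they held 5.003% of the summed RPKM. Besides the enzymes named above, Ms4a3, a membrane protein of granulocyte and monocyte progenitors, was at 916. Fcnb (ficolin B, a soluble lectin) was at 421 and Clec12a, an inhibitory lectin receptor, at 353. Serpinb1a, the inhibitor that guards cells against their own elastase and cathepsin G, was at 291, and Cst7 (cystatin F, an inhibitor of cathepsin C) at 190. Prss57, the fourth serine protease of these granules, was at 108. Ctsc, which removes the activation peptide of the granule proteases, was the lowest at 22.9, far below its substrates.

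Of the 18 secondary granule genes 16 were members (88.9%, against 41.9% of all symbols). Their list had a median of 62.8 RPKM and held 0.620% of the summed RPKM. The highest were Ngp (neutrophilic granule protein, 632), Camp (cathelicidin, 546), Hp (haptoglobin, 367) and Lyz2 (lysozyme, 300). Lcn2 (lipocalin 2, which binds iron siderophores) was at 89.2 and Ltf (lactoferrin) at 75.2. Mpo was 10.8 times as high as Ngp and 90.5 times as high as Ltf. The list was thus spread over a wide range. Chil3, a chitinase-like protein, was at 172, Itgam (the CD11b integrin chain) at 52.2, Mmp8 (neutrophil collagenase) at 2.45 and Slc11a1 (a metal ion transporter of phagosomes) at 0.320. Bpi rested on 1 read at 0.0125.

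Of the 7 tertiary granule genes 5 were members (71.4%, against 41.9% of all symbols), with a median of 3.32 RPKM. Hvcn1, a proton channel, was highest at 46.8 and Cfp (properdin) was at 17.4. Padi4, the deiminase of neutrophil extracellular traps, was at 3.32 and Mmp9 (gelatinase B) at 1.91. Mmp25 (0.768) and Adam8 (0.458) lay under the threshold. Ngp was 332 times as high as Mmp9. The median was therefore highest in the primary, lower in the secondary and lowest in the tertiary list, while the ranges of neighbouring lists overlapped.

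**Figure D3:**
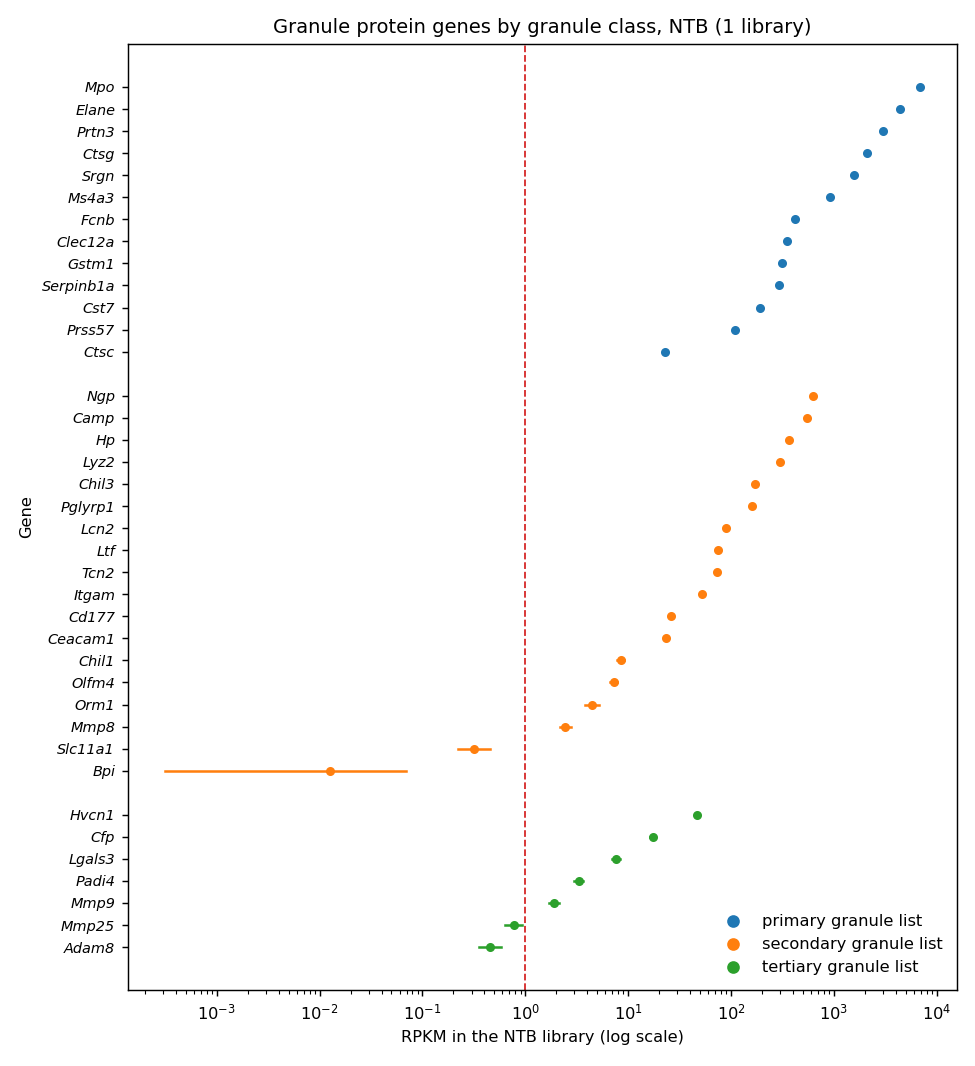
RPKM of each gene of the 3 granule lists on a log scale, with bars for the 95% counting interval where it exceeds the dot and a dashed line at 1 RPKM. All 13 genes of the primary granule list lie between 22.9 and 6811. The 18 genes of the secondary list lie between 0.0125 and 632, and the 7 of the tertiary list between 0.458 and 46.8.

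Of 27 genes of mature neutrophils 18 were members (66.7%, against 41.9% of all symbols). The median was 1.76 RPKM, and 4 were listed at 0. Msrb1, a methionine sulfoxide reductase, was at 142, Wfdc21 at 139, Slpi, an inhibitor of elastase, at 69.8 and Sorl1 at 32.5. Cxcr1, Stfa2, Stfa3 and BC100530 were at 0, of which the last 3 belong to the stefin A cluster of near-identical genes and are uncertain. Ly6g, an antigen of mature neutrophils, was at 4.09 RPKM, and was picked out after its value was seen.

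Genes of the oxidase and of protein folding were at high levels, and those of heme synthesis, apart from Alas1, were not. All 7 genes of the NADPH oxidase, the enzyme complex that makes superoxide, were members, with a median of 120 RPKM and a narrow range from Cybb, the catalytic chain, at 58.8 to Rac2, its GTPase, at 178. All 18 genes of protein folding in the endoplasmic reticulum were members, with a median of 114. Calr (calreticulin, a chaperone of glycoproteins such as myeloperoxidase) was at 1183, P4hb at 543, Hspa5 (BiP) at 523 and Hsp90b1 at 485, and the lowest was Ero1lb at 14.99. Of 9 heme synthesis genes 8 were members (88.9%, against 41.9% of all symbols). Their list had a median of 12.5 RPKM, close to the median of 12.8 over all members. Alas1, the first enzyme of the pathway in cells other than red cell precursors, was at 305. Alad was at 5.97, Uros at 3.42 and Alas2, the erythroid form of the first enzyme, at 0.0451.

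Regulators of granulocyte development were present at middle levels. Of 27 genes 24 were members (88.9%, against 41.9% of all symbols), with a median of 21.6 RPKM. Myb, which keeps progenitors in an immature, dividing state, was highest at 300 (rank 179) and 3.51 times as high as Spi1. Spi1 (PU.1) was at 85.5, Gfi1, a repressor needed for neutrophil formation, at 84.3 and Cebpe, the factor of the secondary granule stage, at 77.4. These last 3 were close in level. Fli1 was at 70.4, Myc at 69.8, Cbfb at 57.6 and Cebpa, which acts at entry into the granulocyte and monocyte lineage, at 42.6. Runx1, the partner of Cbfb, was at 17.5 and Cebpd at 21.4. Cebpb, the factor of emergency granulopoiesis, was at 9.80 and was singled out after its value was seen. The 3 genes below the threshold were Rara (0.881), Rxra (0.535) and Trib1 (0.360). Rxrb, a paralog of Rxra, was at 23.5 and so 43.8 times as high as Rxra.

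Of 18 regulators of monocytes and dendritic cells 9 were members, with a median of 1.61 RPKM. This share of 50% was above the 41.9% of all symbols but near the 47.9% of protein-coding symbols. Irf8, which favors monocyte over granulocyte fate and is the gene lacking in another group of the series, was highest at 43.8 (rank 1448). It was 0.565 times the level of Cebpe. Zeb2 was at 27.04, Id2 at 13.8 and Klf4, a monocyte factor, at 6.40. Zbtb46 (0.0134) and Maf (0.0123) of dendritic cells and macrophages were near 0, and Batf3, a factor of cross-presenting dendritic cells, was at 0, where 3 reads would be 0.0603 RPKM. The group thus held both well expressed and nearly silent factors.

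Of 24 regulators of other lineages 9 were members (37.5%, near the 41.9% of all symbols), with a median of 0.305 RPKM. The highest were Ikzf1 (42.4), which is used in many blood lineages, Nfe2 (33.4), known from megakaryocytes and red cell precursors, Tcf3 (20.8), Zbtb7b (14.4), known from CD4 T cells, and Notch1 (10.3). Another 4 lay between 1 and 10 RPKM, 11 lay above 0 but under 1 and 4 were at 0. All 6 GATA genes were under the threshold, led by Gata2 (0.592) and Gata1 (0.247), and the 4 at 0 were Pax5, Bcl11b, Lef1 and Tbx21.

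The stem cell list had 17 of 33 genes as members, with a median of 1.28 RPKM. This share of 51.5% was above the 41.9% of all symbols but near the 47.9% of protein-coding symbols. Lyl1 was at 88.6, Lmo2 at 85.2, Prom1 (CD133) at 65.5, Kit at 57.2, Cd48 at 42.6 and Cd34 at 36.9. Lyl1 was 25.5 times as high as its relative Tal1. Only 2 of 39 Hox genes were members, Hoxb4 (2.73) and Hoxa9 (1.90), and Fgd5 was at 0.00397. Hoxb5 and Nkx2-3 were at 0. Ly6a (Sca-1), a stem cell antigen, was at 0.223 and was singled out after its value was seen.

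Cytokine receptors were led by the receptor chain for interferon gamma. Of 53 genes 33 were members (62.3%, against 41.9% of all symbols), with a median of 6.90 RPKM. Ifngr1 was at 244 (rank 209), while its partner Ifngr2 was at 15.6. Csf3r, the receptor for granulocyte colony-stimulating factor, was at 79.5 (rank 708), Csf2ra (GM-CSF receptor alpha) at 59.4 and its common beta chain Csf2rb at 24.4. Csf1r, which binds the macrophage growth factor M-CSF, was at 24.6. Csf3r was 3.23 times as high as Csf1r. Receptors for tumor necrosis factor (Tnfrsf1a 53.2 and Tnfrsf1b 28.9) and interferon alpha and beta (Ifnar2 29.6) followed, with Igf1r at 28.1 and Il17ra at 20.3. Flt3, the receptor of multipotent and dendritic progenitors, was at 1.28. Il7r, of lymphoid progenitors, was at 0.00696, and Il9r, Il17rc, Osmr and Prlr were at 0.

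Signaling genes downstream were members in 23 of 27 cases (85.2%, against 41.9% of all symbols), with a median of 14.9 RPKM. Ptpn6 (SHP-1, a phosphatase that dampens receptor signals) was at 78.1, Cbl at 49.7, Jak1 at 37.2 and Stat3, which relays the signal of Csf3r, at 36.5. All 7 STAT genes were members. Negative feedback genes of the SOCS family were spread widely. Socs4 was at 12.99 and Socs6 at 12.2, while the lowest of the list were Cish at 0.248, Socs3 at 0.115 and Socs2 at 0, where 3 reads would be 0.0248 RPKM.

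Of 43 chemoattractant receptor genes 16 were members (37.2%, near the 41.9% of all symbols), with a median of 0.217 RPKM. Of the list 15 were at 0, and 41.5% of all symbols were. Cxcr4, which holds cells in the bone marrow, was at 111 and 25.3 times as high as Cxcr2, the receptor for release from it, at 4.38. Ltb4r1, the high-affinity leukotriene B4 receptor, was at 48.9 and Ccr2, a monocyte receptor, at 24.2. No other gene of the list reached 10 RPKM, S1pr4 (8.39) and S1pr2 (7.31) coming next. Ccr7, Cxcr3, Ccr6 and Cmklr1 were among those at 0.

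**Figure D4:**
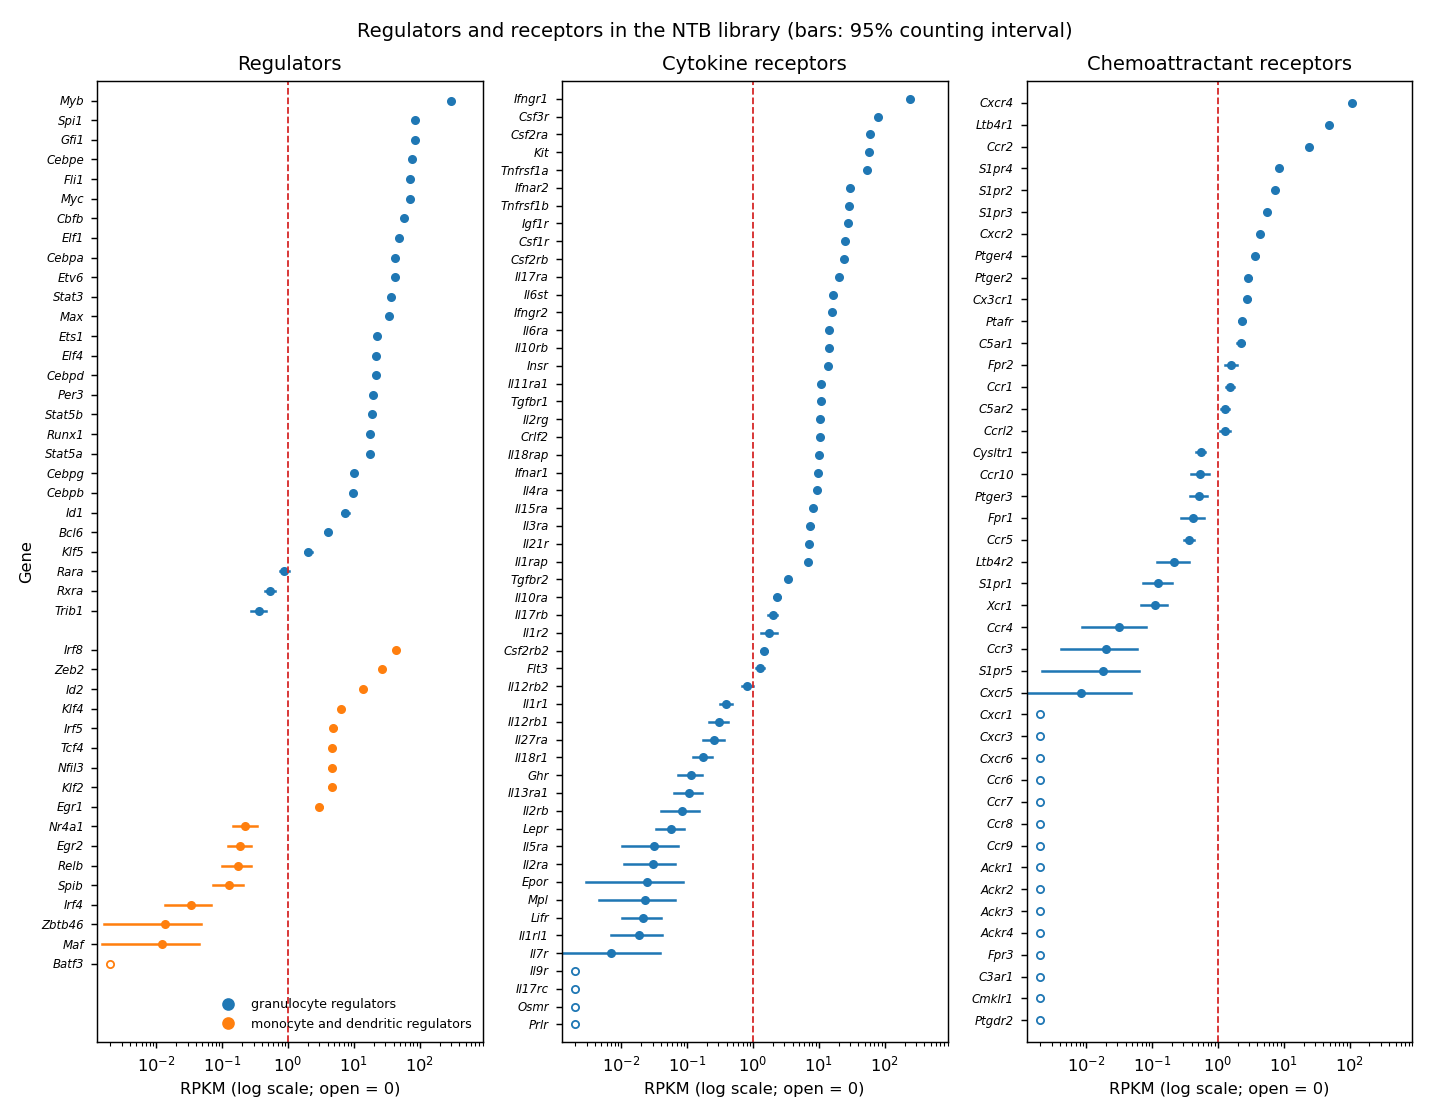
RPKM of regulators, cytokine receptors and chemoattractant receptors on log scales, with bars for the 95% counting interval, a dashed line at 1 RPKM and open circles for genes at 0, drawn at the left edge. The panels run from Myb (300), Ifngr1 (244) and Cxcr4 (111) at the top to genes without reads, 15 of them chemoattractant receptors.

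Sensors of microbes were present in part. Of 37 pattern recognition genes 27 were members (73.0%, against 41.9% of all symbols), with a median of 5.17 RPKM and none at 100. The highest were signaling parts, Irak1 (38.7), Casp1 (29.1) and Irak3 (26.3), and Myd88, the shared adaptor of Toll-like receptors, was at 18.04. Of the 12 Toll-like receptors 4 were members (33.3%, against 41.9% of all symbols). These were Tlr4 (14.3), which senses lipopolysaccharide, Tlr6 (4.37), Tlr2 (4.00) and Tlr1 (2.32). Tlr11 and Clec4n were at 0. Of 19 Fc and paired receptor genes 14 were members (73.7%). Tyrobp (DAP12, an adaptor of activating receptors) was at 197, Trem3 at 116, Fcgr3 at 101 and Fcgr2b, the inhibitory Fc receptor, at 60.6. Fcgr3 was 837 times as high as Fcgr1, the high-affinity receptor of monocytes and macrophages. This ratio is imprecise, because Fcgr1 rested on 14 reads (0.121 RPKM, 95% counting interval 0.066 to 0.203).

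Adhesion and surface genes were members in 26 of 29 cases (89.7%, against 41.9% of all symbols), with a median of 41 RPKM. Cd24a was at 266, Cd63, a membrane protein of primary granules, at 140, Spn (CD43) at 136 and Cd47 at 133. Among integrin subunits 12 of 26 were members (46.2%, near the 41.9% of all symbols). The highest were Itgam (52.2), its partner Itgb2 (49.1), Itgb1 (48.6) and Itga4 (39.3). Of the 18 antigens often used to sort such cells 11 were members (61.1%, against 41.9% of all symbols). Ly6c2 was at 739, Fcgr3 at 101, Ly6c1 at 97.9, Fcgr2b at 60.6 and Kit at 57.2. Ly6c1 and Ly6c2 are close copies, and how their reads were split is uncertain. Antigens of lymphocytes were low or at 0, with Cd8a at 0.0143, Il7r at 0.00696 and Cd3e at 0. Among adhesion G protein-coupled receptors Adgrg3 (GPR97) stood out at 132, followed by Adgre5 (CD97, 27.1) and Adgrl4 (24.8).

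Cell cycle genes were members in 30 of 36 cases (83.3%, against 41.9% of all symbols), with a median of 44.5 RPKM. Pcna, the sliding clamp of replication, was at 221, Top2a at 194 and Mki67, present in cycling cells, at 190. All 9 MCM helicase genes were members, from 6.79 (Mcm9) to 165 (Mcm6). Cdk6 (172) and Cdk4 (169), the kinases of G1, were alike in level, and of the D-type cyclins Ccnd3 was at 41.9 and Ccnd2 at 25.3, while Ccnd1 was at 0.612. Ccna1, Cdkn2a and Cdkn2b were at 0. Of 23 genes of antigen presentation 15 were members (65.2%, against 41.9% of all symbols). Class I genes were high, with B2m at 627, H2-K1 at 133 and H2-D1 at 94.3. Of the class II genes H2-DMa, a chain of the peptide-loading chaperone, was at 15.8, while H2-Ab1 was at 2.43 and Ciita, the master regulator of class II, at 0.0149. H2-K1 was 54.7 times as high as H2-Ab1. H2-Q6 was at 0.

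Of 39 genes of secreted cytokines and chemokines 14 were members (35.9%, near the 41.9% of all symbols), with a median of 0.168 RPKM, and 15 were at 0. Mif was at 197, Grn (progranulin) at 81.5, Tgfb1 at 50.3, Ccl9 at 28.3 and Vegfa at 22.97. Il16 was at 15.5 and Il12a, 1 of the chains of interleukin 12, at 9.82, while Il12b, its partner, was at 0. Il6, Il10, Ifng, Csf2, Csf3, Cxcl1 and Cxcl2 were also at 0. Of 44 nuclear receptors 13 were members (29.5%, against 41.9% of all symbols), and 13 were at 0. The highest were Nr2c2 (27.3), Rxrb (23.5), Nr1h2 (LXR beta, 21.9), Thra (19.4) and Nr3c1 (the glucocorticoid receptor, 17.8).

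Monocyte genes were the list of another cell type with the most members. Of 21 genes 18 were members (85.7%, against 41.9% of all symbols), with a median of 7.502 RPKM. Ly6c2 (739) and F13a1 (coagulation factor XIII A, 151) were highest, then Mpeg1 (44.8), Ms4a6c (33.3) and Csf1r (24.6). Among the lowest of the list were Vcan at 0.175 and Fcgr1 at 0.121. The list summed to 1099 RPKM, most of it Ly6c2, against 20498 for the primary granule list. The part of co-sorted monocyte precursors in these levels was not tested.

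Macrophage genes were members in 4 of 17 cases (23.5%, against 41.9% of all symbols), with a median of 0.174 RPKM. Vcam1 (99.6) and Slc40a1 (ferroportin, 38.9), both of iron-recycling macrophages, were high, while the macrophage markers Vsig4, Timd4 and Marco were at 0. Dendritic cell genes were members in 4 of 17 cases (23.5%) with none at 10, the highest being H2-Ab1 (2.43) and Kmo (1.88). Batf3, Cd209a, Ccr7, Ly6d and Ccr9 were at 0.

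Eosinophil genes were members in 2 of 11 cases (18.2%, against 41.9% of all symbols). These were Siglecf (12.9) and Prg2 (major basic protein, 3.41), while Epx (eosinophil peroxidase) was at 0.407. Basophil and mast cell genes were members in 4 of 15 cases (26.7%). Hdc, the enzyme that makes histamine, was at 104 and Mcpt8, a basophil protease, at 15.7. The mast cell proteases Mcpt1, Mcpt4, Tpsb2, Tpsab1 and Cma1 were at 0. The listed genes of these lineages thus ranged from 0 to 104 RPKM, the top value being that of Hdc alone. After Hdc and Mcpt8 the next of the basophil and mast cell list was Ms4a2 at 1.57.

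The erythroid, megakaryocyte and lymphoid lists had few members, while 41.9% of all symbols were members. Of 23 erythroid genes 1 was a member, Tmod1 at 1.198, and the median was 0.0451 RPKM. The globin genes Hba-a1, Hba-a2, Hbb-bs and Hbb-bt were at 0, but they are near-identical copies and their values are uncertain. Single-copy erythroid genes were low too, with Alas2 at 0.0451, Rhd at 0.0147 and Klf1 at 0.364. Of 15 megakaryocyte genes 1 was a member, Itgb3 at 2.64, and Gp1ba and Gp6 were at 0. Of 23 B cell genes 2 were members, Cd79b (16.4) and Bank1 (1.00), while Pax5, Vpreb2, Fcer2a and Tnfrsf17 were at 0. In T cells the highest was Cd6 at 0.530, with Cd3e, Cd3g and Bcl11b at 0, and in NK and innate lymphoid cells Klrk1 at 0.841. All reads on the T cell list summed to 305.

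Genes of tissues other than blood were also mostly under the threshold, which 41.9% of all symbols reached. Of 16 endothelial genes 3 were members, Tie1 (10.5), Egfl7 (3.93) and Flt1 (3.28), with Sox17, Sox18, Mmrn2 and Stab2 at 0. Of 21 stromal genes 1 was a member, Lpl at 2.51, and 15 were at 0, among them Cxcl12, Col1a1, Col3a1 and Kitl. Of 9 epithelial genes Krt18 was the only member, at 5.93, and of 16 genes of other tissues, from Alb to Gfap, none was and 12 were at 0.

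**Figure D5:**
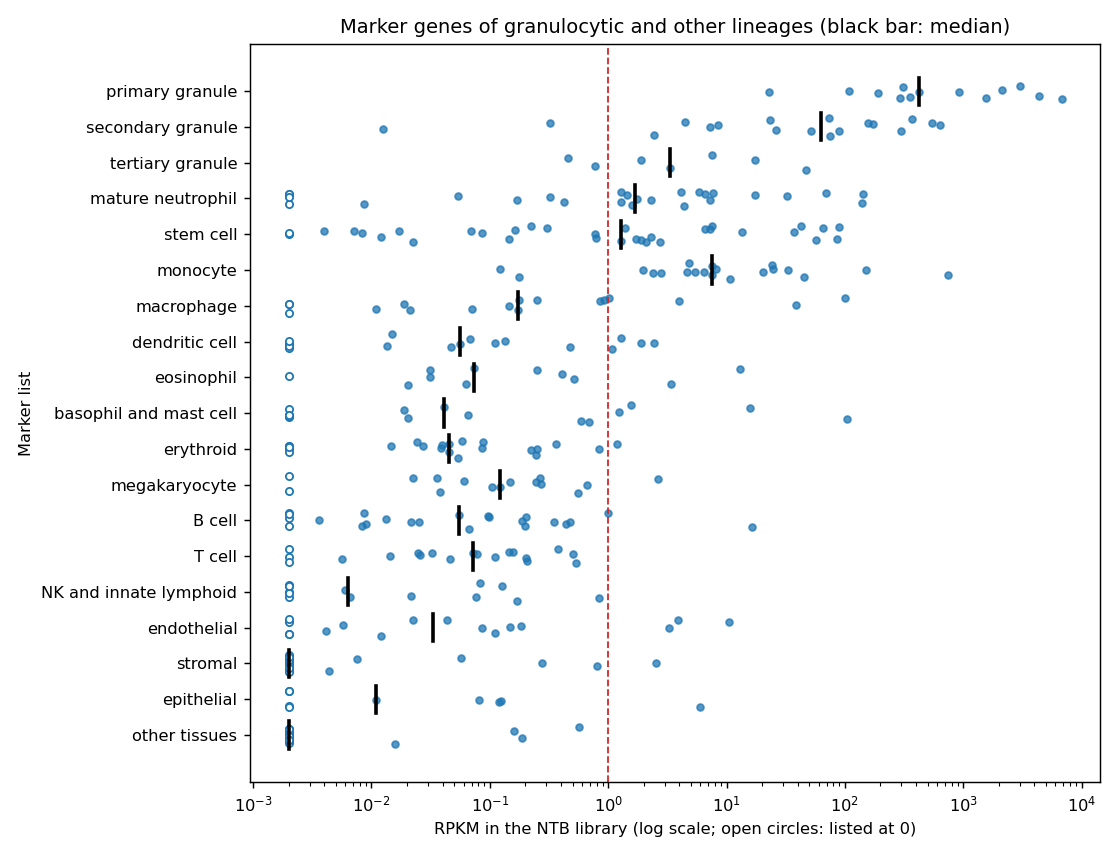
RPKM of the genes of 19 marker lists on a log scale, with a black bar for the median of the genes shown, a dashed line at 1 RPKM and open circles for genes at 0, drawn at the left edge. Medians run from 421 for the primary granule list to 0 for the stromal and other tissue lists. Genes such as Hdc, Vcam1, Cd79b and Tie1 stand right of the threshold in lists whose medians lie left of it.

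Whole gene families gave the same picture. Of 1107 olfactory receptors 1095 were at 0 and only Olfr613 was a member, at 7.02 RPKM (95% counting interval 6.68 to 7.37). Of 329 vomeronasal receptors 320 were at 0 and only Vmn1r58 was a member, at 4.67 (4.45 to 4.90). All 55 defensins were at 0. None of 19 WNT ligands, 9 PAX factors or 58 protocadherins reached 1 RPKM. Of 44 collagens 2 were members, Col11a2 (2.43) and Col5a3 (1.90). Col11a2 lies within 5000 bases of Rxrb (23.5) on the same strand, and a part of Rxrb reads in its level was not tested. Among 44 glutamate and GABA receptor genes 3 were members, and Gria3, an AMPA receptor subunit, was at 26.4 (25.8 to 27.1), resting on 6297 reads. Among 93 cytochrome P450 genes 9 were members, with Cyp20a1 at 12.9. Among 63 serpins 6 were members, Serpinb1a at 291 far above Serpine2 at 27.6.

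In families of general cell function nearly all genes were members. All 77 mitochondrial ribosomal protein genes, all 37 complex I genes and 42 of 43 proteasome genes were members, with medians of 21.9, 53.04 and 63.5 RPKM. Of 337 Zfp zinc finger genes 259 were members, though at a median of 3.95. Other families lay nearer to the 41.9% of all symbols. Of 371 solute carriers 163 (43.9%) were members. Among 16 S100 genes 8 were members, and after S100a9 and S100a8 the next was S100a11 at 210. Among 23 cathepsins 11 were members, with Ctsd (122) and Ctsz (121) next to Ctsg. By annotation, 9529 of 19885 protein-coding symbols (47.9%) were members, against 71 of 912 lincRNA symbols (7.79%). By chromosome, 31.3% of 984 symbols on the X were members, and the autosomes lay between 35.04% (chromosome 7) and 49.5% (chromosome 17). None of the 45 symbols on the Y was above 0, and Xist, the RNA of the inactive X, was at 168.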

How the data were processed

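RNA from 1 library (NTB) was described, of 3 in the series. Per the labels, total RNA was extracted with TRIzol and sequenced after standard Illumina library preparation. The values are RPKM as deposited by the authors for 24421 symbols. Tools listed in the submitters' processing notes, without their roles, are edgeR 3.12.1, HTSeq 0.6.1, TopHat2 2.0.13, cutadapt 1.2.1, Picard 1.97 and CASAVA 1.8.2, and the build is mm10. The sources used here do not state the annotation, filters, strandedness or form of the library size. Without strand, reads of overlapping genes cannot be told apart.

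Each RPKM above 0 was a ratio of whole reads to a whole gene length to a relative tolerance of 1e-12, for all 14279 genes above 0. The ratio leaves a common factor open, which was chosen from the 3 libraries' ratios and from GENCODE M21 lengths. The other libraries served for gene lengths only. Lengths came within 0.8 to 1.25 of a reference length for 96.1% of 13715 genes, partly by that choice. The library size implied by RPKM was 1.11 times the summed reads. Levels carry exact 95% Poisson intervals, which cover counting error only. For a gene at 0 the limit is 3 reads. Recovery was tested on data simulated with the recovered lengths, so the test cannot show a wrongly chosen factor. Lengths equalled a reference length for 14.5% of the 13715 genes. The reads and intervals of some genes may be off by a whole factor, while RPKM values are unaffected.

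Promoter windows came from RefSeq (GRCm38.p6) for 14577 symbols with exactly 1 window, 59.7% of all, and 6286 of these were members. Motifs were searched on both strands. The 38 gene lists and 41 families, as well as the members, were chosen with earlier results of these data known. Named genes were drawn from the 40 highest and from list members at 10 RPKM or more or at 0. They also came from the 5 highest and 3 lowest of each list and the 5 highest of each family. Further sources were family members at 10 RPKM or more where under 20% were on, and 4 genes on each side of the threshold. Not every gene that met this rule is named, so an unnamed list member can be at 10 RPKM or more. A few genes are named beyond this rule and were chosen after their values were seen, among them Ly6g, Cebpb, Ly6a, Ccnd1 and the low ribosomal genes. Acod1, Epb42 and Lilrb4 were found under other symbols, and Ly76 was not found. Some list members are not reported here and are left out of the figures, while counts and medians in the text cover all listed genes. The alternatives were other thresholds, a call on the lower bound of the interval, leaving out predicted and small RNA entries, and other denominators. Software was matplotlib 3.10.9, pandas 2.3.3, scipy 1.17.1 and numpy 2.4.6 under Python 3.11.15.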

Additional observations from a re-analysis of the deposited data

How the results depend on the processing

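The number of members stayed within 1.5 times of 10236 under each alternative run, with 10864 at 0.5 RPKM or more, 7968 at 5 or more, 9731 without predicted, Riken, microRNA and small nucleolar entries, and 10025 by the lower bound of the counting interval. The share of the 20 highest genes was 16.7% of summed RPKM. It was 16.4% without Rn45s, 16.9% without predicted and small RNA entries, and 10.1% as a share of reads. It was 13.6% without Rpph1, Rmrp and Rn45s, an alternative added after seeing the data. At 5 RPKM the count of members moved by over 1.5 times in 17 of 38 lists and 16 of 41 families, and at 0.5 RPKM in 6 of 38 and 6 of 41. The median over members alone differed from that over all listed genes by more than the counting error of the gene at the median in 28 of 35 lists. No paired analysis was possible because there is 1 library and no comparison. With 1 library, variation between mice is unknown, and depth limits genes under about 100 reads.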
